A study of Mus musculus with 6 samples.

Results

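The levels of the microRNAs miR-132 and miR-212 were followed by TaqMan RT-PCR in cultured macrophages from mice with an intact or a floxed Dicer gene. They were found by name among 596 miRNA assays, which gave 1 assay each, so that the members were 2 of 596. Both come from a single gene cluster, whose primary transcript is known as a target of the transcription factor CREB in neurons and is also induced by Toll-like receptor ligands in macrophages and monocytes. Drosha and Dicer cut this transcript in turn into the mature miRNAs, which load into Argonaute and repress mRNAs that pair with their seed. In leukocytes miR-132 is known to repress acetylcholinesterase, an enzyme whose loss dampens inflammatory signals. miR-212 has the same seed and is usually the less abundant product.

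Bone marrow of male mice aged 6 to 8 weeks was differentiated into macrophages over 7 days with supernatant of L929 cells, a source of macrophage colony-stimulating factor. The WT group was LysM-Cre/Dicer wt/wt/Apoe-/- and the KO group LysM-Cre/Dicer flox/flox/Apoe-/-, with 3 mice in each, so the control mice carried the Cre driver and lacked Apoe as well. LysM-Cre is active in the myeloid lineage, and the deletion was not checked here because only small RNAs were assayed. The labels name no CREB activator and no Toll-like receptor ligand, so the values are those of cultures without a stated stimulus.

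The hairpins and mature strands of both members were found in the RefSeq table (GRCm38.p6). They are shown because Dicer acts on the hairpin and because the mature strands are nearly alike. The hairpin of miR-212 lies at chr11:75173388-75173478 and that of miR-132 at chr11:75173682-75173747, both on the plus strand and with 203 bases between them. In the RefSeq gene order Hic1 and Ovca2 flank the pair. Capitals mark the 3p strand within each hairpin.
Mir212 hairpin: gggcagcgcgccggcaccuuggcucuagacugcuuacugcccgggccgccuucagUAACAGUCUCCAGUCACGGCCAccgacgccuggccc
Mir132 hairpin: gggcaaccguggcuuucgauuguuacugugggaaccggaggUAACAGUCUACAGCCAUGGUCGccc

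In the mature 3p strands the seed, bases 2 to 8, is in capitals. The assay names carry no arm, and the 3p strand is the arm that these names denoted in the older nomenclature.
miR-132-3p: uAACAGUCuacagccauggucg
miR-212-3p: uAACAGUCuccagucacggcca
The strands have 22 bases each and are identical in 17 positions, including all of the first 9. Counted from the 5′ end and with miR-132 first, they differ by A10C, C14U, U17C, U20C and G22A. Among 1738 mature miRNAs of the RefSeq table these were the only 2 with this seed. The differences lie in the 3′ part of the strands, and how far each assay also detects the other strand was not tested.

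The assays stand in different blocks of the deposited table, each with its own 5 endogenous controls (U6, U87, Y1, snoRNA135 and snoRNA202). miR-132 is in the first block of 335 miRNA assays and miR-212 in the second block of 261. The threshold cycle (Ct) falls by 1 for each doubling of template, and a well without amplification is listed at 40. The mean control Ct was 21.1, 20.6 and 19.1 in WT replicates 1, 2 and 3 and 22.8, 20.3 and 19.3 in the KO replicates in the first block, and 21.1, 19.3 and 19.0 against 22.1, 19.3 and 19.3 in the second. The log2 relative abundance used here is the mean control Ct of the block minus the Ct of the assay in the same sample. KO replicate 1 thus had the latest controls in both blocks.

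miR-132 was less abundant in every KO sample than in every WT sample, but the distance ranged from small to large among the KO mice. In WT replicates 1, 2 and 3 its Ct was 23.6, 23.5 and 21.4, and in the KO replicates it was 29.0, 25.6 and 22.3. Scaled to the controls, the WT samples were at -2.51, -2.94 and -2.25 and the KO samples at -6.12, -5.32 and -2.99 on the log2 scale. KO replicates 1 and 2 lay far below WT, while KO replicate 3 lay just below WT replicate 2. All 3 KO samples thus lay below all 3 WT samples, which held for 59.9% of the 282 tested assays. Set against the WT mean, miR-132 was 11.8-fold lower in KO replicate 1, 6.78-fold in KO replicate 2 and 1.35-fold in KO replicate 3. In RNA from whole cultures, fewer cells of a type cannot be told apart from less miRNA per cell.

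The group means of miR-132 were -2.56 ± 0.35 in WT and -4.81 ± 1.63 in KO (SD, n = 3 each, log2 relative abundance). The difference was -2.25 ± 0.86 (SE), 4.76-fold lower in KO, with a 95% interval from 1.15-fold to 19.7-fold lower. It did not pass after Benjamini-Hochberg adjustment over all tested assays (limma, adjusted p = 0.0718, unadjusted p = 0.0354; exact permutation p = 0.1, two-sided, the smallest that 3 against 3 samples allow). In the same fit 37.2% of tested assays were called lower and 0.355% higher, and 53.2% were lower at an unadjusted p under 0.05. With the replicate number as a block the adjusted p was 0.0616. Without KO replicate 3, the KO sample nearest to WT, the difference was -3.16 and passed (limma, adjusted p = 0.0339), beside 112 of 285 tested assays called lower. Without any 1 of the other samples it did not pass (limma, adjusted p from 0.151 to 0.165). With U6 alone as the reference it was -2.35 and passed (limma, adjusted p = 0.041), beside 117 of 282 called lower. With no reference it did not pass (limma, adjusted p = 0.256).

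**Figure D1:**
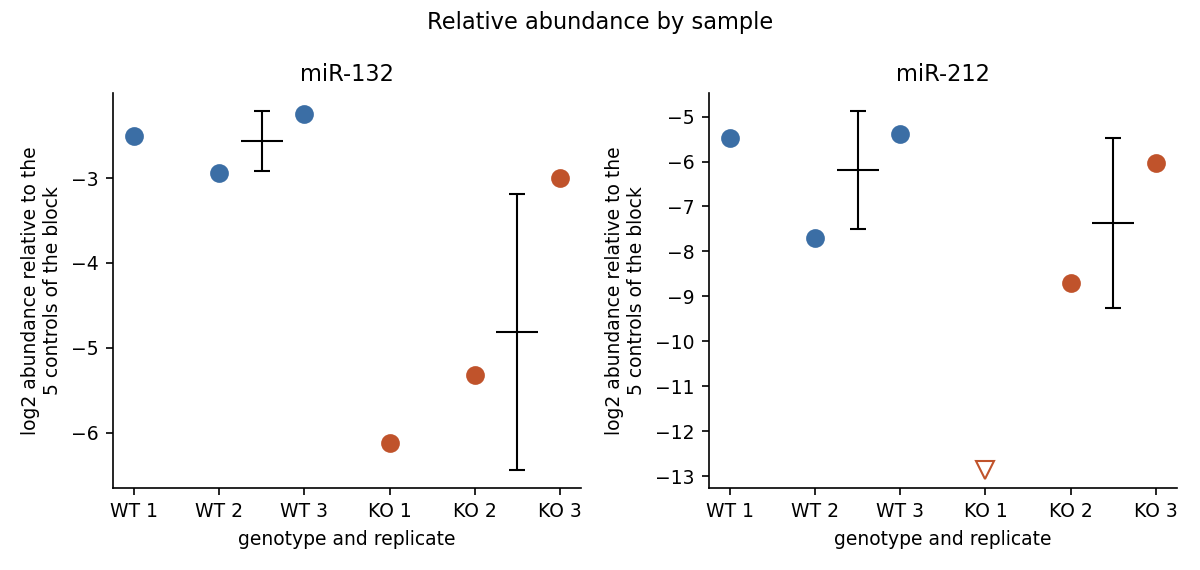
The log2 abundance of miR-132 (left) and miR-212 (right) relative to the 5 controls of the block is plotted for each WT (blue) and KO (orange) replicate; bars are the mean and SD of the amplified wells, and the open triangle is the unamplified KO replicate 1 well of miR-212 drawn at the ceiling of Ct 35. KO replicate 3 is the highest KO sample for both miRNAs, at -2.99 for miR-132 and -6.04 for miR-212.

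miR-212 was measured in 5 of 6 samples, and in these the groups overlapped. The WT replicates had Ct values of 26.6, 27.0 and 24.4, KO replicates 2 and 3 had 28.0 and 25.3, and KO replicate 1 did not amplify. On the log2 scale the relative abundance was -5.48, -7.69 and -5.40 for WT and -8.71 and -6.04 for KO replicates 2 and 3. WT replicate 2 was low, below KO replicate 3, and KO replicate 2 was the lowest measured value.

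Over the amplified wells the means of miR-212 were -6.19 ± 1.30 in WT (SD, n = 3) and -7.37 ± 1.89 in KO (SD, n = 2). The difference was -1.19 ± 1.13 (SE) on the log2 scale, with KO replicate 1 left out of this row of the fit. This is 2.27-fold lower in KO, and the 95% interval of the difference, from -3.97 to 1.60, includes a higher level in KO (limma, adjusted p = 0.431; exact permutation p = 0.5, two-sided, smallest possible 0.1). Without KO replicate 2 the sign turned, to 0.15 (adjusted p = 0.936), with KO replicate 3 as the lone KO sample, assumed to vary like the others. Without WT replicate 2 the difference was -1.94 (adjusted p = 0.242), without WT replicate 3 it was -0.79 and without KO replicate 3 -2.52 (adjusted p = 0.133).

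The unamplified well of miR-212 in KO replicate 1 is given apart. At the mean WT level relative to the controls, miR-212 would have had a Ct of 28.3 in this sample, and with the deviation of miR-132 in the same sample a Ct of 31.9. Taken at the ceiling of Ct 35, the well would lie at least 102-fold below the WT mean, a bound that holds only if the well is taken as an absence. Among 100 second-block assays below Ct 35 in all 3 WT samples, miR-212 included, 29 did not amplify in KO replicate 1, beside 7 each in KO replicates 2 and 3. Of the 38 of these with a mean WT Ct no later than that of miR-212, 4 did not amplify there. They were miR-1198, miR-28#, the second-block assay of miR-322, and miR-212. The 3 other than miR-212 were chosen after their values were seen, and each amplified between Ct 24.0 and 26.0 in KO replicates 2 and 3. An assay of the first block, also named miR-322, was below Ct 35 in all 3 KO samples. In KO replicate 1 it lay at -3.01 from its WT mean on the log2 scale. Whether the unamplified wells lack the template or the reaction failed was not tested.

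With this well at the ceiling, the difference of miR-212 was -3.01 ± 1.68 (SE, n = 3 each; limma, adjusted p = 0.169; exact permutation p = 0.2). Only 14 of the 282 tested assays had a larger SE. The value ran from -4.68 with no ceiling to -2.01 with a ceiling of 32. Without KO replicate 3 it was -4.59 and passed (limma, adjusted p = 0.0458), beside 112 of 285 tested assays called lower. The KO values left were then KO replicate 2 and the well at the ceiling. The size of the difference therefore depends on the number given to a single well.

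**Figure D2:**
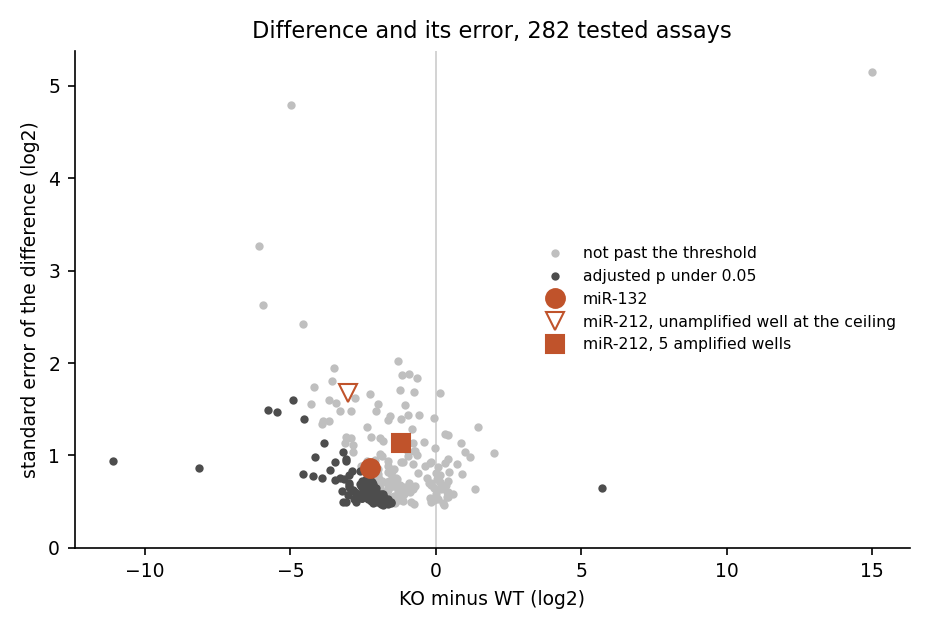
Each of the 282 tested assays is plotted by its KO minus WT difference (log2, horizontal) and the standard error of that difference (log2, vertical), with assays past an adjusted p of 0.05 in dark grey. miR-132 lies at -2.25 with an SE of 0.86, and miR-212 moves from -1.19 to -3.01 when its unamplified well enters at the ceiling.

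The members were set beside the other assays of their own block in each KO sample, since most assays were lower in KO. The tested assays of the first block had a median shift from the WT mean of -2.58, -1.64 and -1.63 in KO replicates 1, 2 and 3. miR-132 was at -3.56, -2.76 and -0.43, below the median in KO replicates 1 and 2 and above it in KO replicate 3. Of the 179 tested assays of that block, 30, 21 and 160 had a lower shift than miR-132 in these samples.

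miR-212 took the same side of the median of the second block. There the median shift was -1.66, -1.68 and -0.66 over 103 tested assays, while miR-212 was at -2.52 in KO replicate 2 and 0.15 in KO replicate 3, where 20 and 68 assays were lower. In KO replicate 3 both members thus stood nearer to the WT mean than the medians of their blocks. WT replicate 2 had the lowest WT value of both members, with shifts of -0.37 for miR-132 and -1.50 for miR-212.

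**Figure D3:**
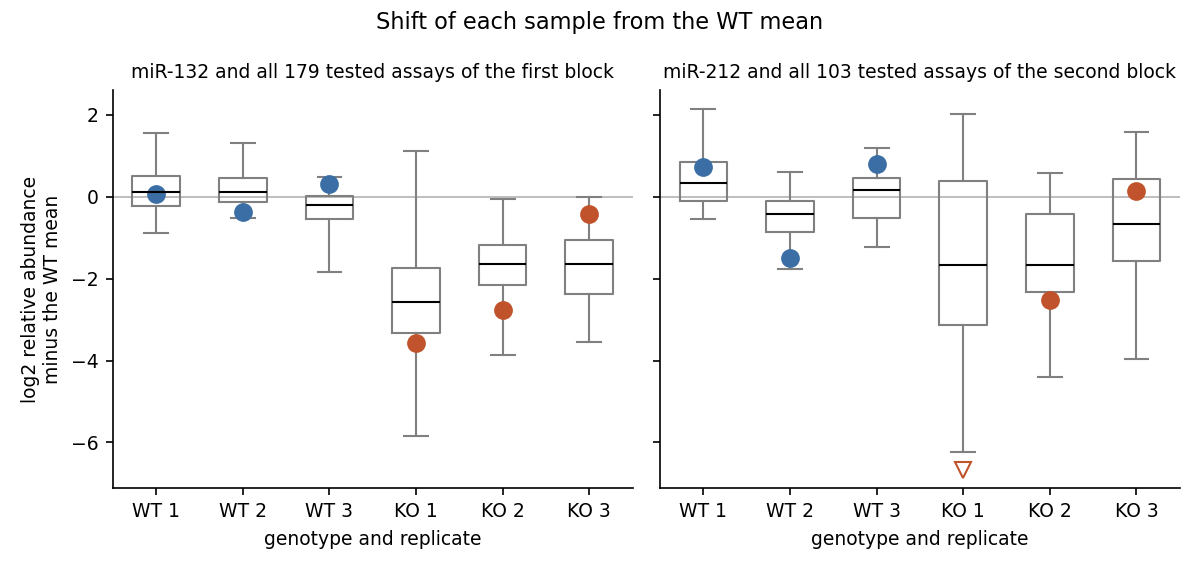
Boxes show the log2 shift from the WT mean of all tested assays of the first (left) and second (right) block in each sample (median, quartiles, whiskers at the 5th and 95th percentiles), with miR-132 and miR-212 as points. In KO replicate 3 miR-132 is at -0.43 beside a block median of -1.63, and in KO replicate 2 it is at -2.76 beside -1.64; the open triangle is the unamplified miR-212 well at the ceiling.

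Over all samples the median difference of all tested assays was -1.91. Relative to this median miR-132 was at -0.34, and 91 of 282 assays had a more negative difference. miR-212 was at 0.72 relative to the median over the amplified wells and at -1.10 with the well at the ceiling. This median includes KO replicate 1, which the amplified wells of miR-212 lack. With KO replicate 1 left out of all assays, the median was -1.49 and miR-212 was at 0.31 relative to it. The median difference was -2.03 in the first block and -1.15 in the second. Relative to its own block miR-132 was at -0.22, and miR-212 was at -0.037 over the amplified wells and at -1.87 with the well at the ceiling. The block medians include KO replicate 1 as well. The global mean reference, which takes the mean of the miRNAs detected in all samples in place of the controls, moved the median of all assays to -0.20. Under it miR-132 was at -0.36 (adjusted p = 0.839) and miR-212 over the amplified wells at -0.58 (adjusted p = 0.781).

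Samples of the same replicate number in both groups were also compared. KO minus WT was -3.62, -2.39 and -0.75 for miR-132 in pairs 1, 2 and 3, and -1.02 and -0.64 for miR-212 in pairs 2 and 3. Each measured pair thus had the lower value in KO. A lower value in all 3 pairs, as for miR-132, was found in 72.3% of tested assays. The share lower in pairs 2 and 3 alone, those measured for miR-212, was not counted. With the replicate block the difference of miR-212 over the amplified wells was -0.83 ± 0.50 (SE; limma, adjusted p = 0.257).

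Because the members come from a common transcript, the distance between them within a sample was compared as well. miR-132 stood 2.97, 4.75 and 3.15 above miR-212 on the log2 scale in WT replicates 1, 2 and 3, and 3.38 and 3.05 above it in KO replicates 2 and 3, each relative to the controls of its block. The 4 samples other than WT replicate 2 lay within 0.42 of each other. The gap between the mean control Ct of the blocks is part of this distance. It was widest in WT replicate 2 (20.6 and 19.3) and KO replicate 2 (20.3 and 19.3). The mean distance was 3.63 ± 0.98 in WT (SD, n = 3) and 3.22 ± 0.24 in KO (SD, n = 2), a change of -0.41 (exact permutation p = 0.9, two-sided, smallest possible 0.1). A change was thus not detectable with these 5 samples, which does not show that the members changed alike, and without WT replicate 2 it was 0.15. With the unamplified well at the ceiling it was 0.76. The distance between assays also holds their amplification efficiencies, so it is not a ratio of molecules.

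The authors' deposited table of relative quantities gave miR-132 ratios of 1.08, 0.749 and 1.24 for the WT replicates and of 0.0944, 0.154 and 0.739 for the KO replicates. For miR-212 the WT ratios were 1.53, 0.386 and 1.70 and the KO ratios 0.000285, 0.189 and 1.06, where the first KO value is the well without amplification entered as Ct 40. The authors' deposited table of fold changes listed KO over WT at 0.322 for miR-132 and 0.347 for miR-212, which are the ratios of the arithmetic means. In these means KO replicate 3 made up 74.8% of the KO sum for miR-132 and 84.9% for miR-212. From the same deposited ratios the difference of mean log2 values was -2.18 for miR-132 and -4.70 for miR-212, beside -1.63 and -1.53 for the deposited folds on the log2 scale. The members thus look alike by the arithmetic mean and far apart by the mean of logs, the latter through the well at Ct 40.

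**Figure D4:**
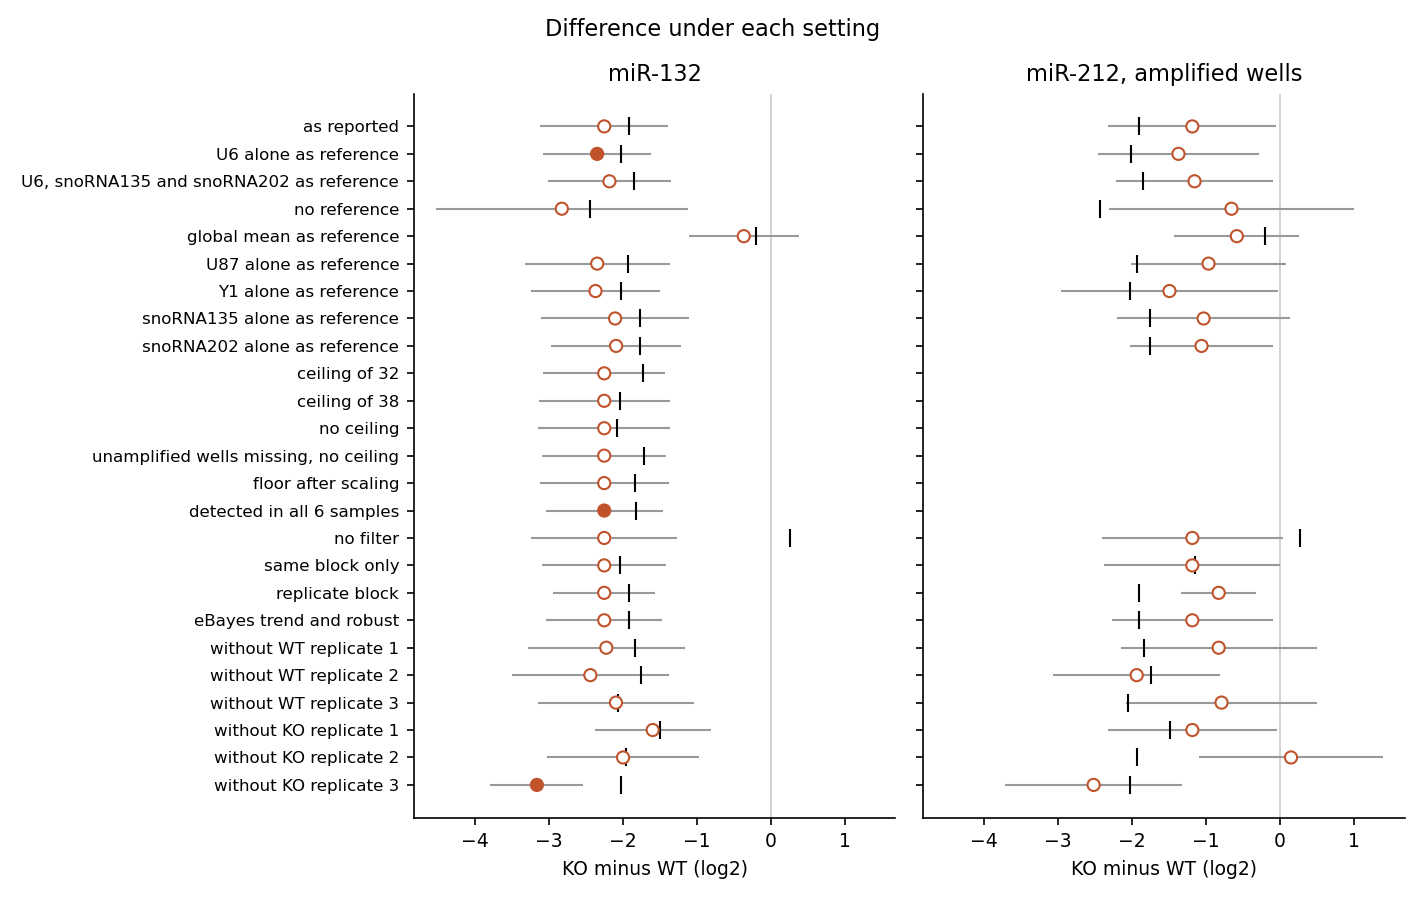
The KO minus WT difference (log2) of miR-132 (left) and of miR-212 over its amplified wells (right) is plotted for each setting with its SE; filled points passed an adjusted p of 0.05, black ticks are the median difference of all tested assays, and settings of the ceiling are absent for miR-212. miR-132 ranges from -3.16 without KO replicate 3 to -0.36 with the global mean as reference.

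The miRNAs with the profile most like that of miR-132 were found by the root mean square difference of the shifts from the WT mean, over 6 samples and 139 assays of the first block detected in all samples. They were the hypoxia-induced miR-210 at 0.36, miR-26a at 0.46, miR-155 at 0.48, miR-146b at 0.50 and miR-146a at 0.52, beside a median of 1.05 over all candidates. In KO replicate 3 their shifts were -0.71, -1.00, -0.01, -0.61 and -0.58, beside -0.43 for miR-132. KO replicate 3 entered the measure that chose these assays, so this nearness is part of the choice. These profiles share the samples and the controls that scale them. Of the 5, 4 are on the list of Toll-like receptor-regulated miRNAs, which supplied 13 of the 139 candidates. That list was chosen with earlier results of these data known, and the share among the 5 was not tested. The KO minus WT differences of the 5 lay between -2.27 and -1.93 and none passed (limma, adjusted p from 0.0562 to 0.155). With the replicate block miR-210 passed (0.0431), beside 118 of 282 tested assays called lower. Without KO replicate 3 all 5 passed (0.0352 to 0.0458), beside 112 of 285. The choice of the 5 used KO replicate 3, so their passing without it is not independent of that choice.

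For miR-212 the measure ran over the 5 samples in which it amplified, and the 61 candidates were the second-block assays below Ct 35 in all 6 samples, KO replicate 1 included. The nearest were miR-1939 at 0.39, miR-125b# at 0.51, miR-30b# at 0.77, miR-24-2# at 0.83 and miR-1839-3p at 0.83, where # marks a passenger strand. The median over all candidates was 1.15. In KO replicate 1, which entered the choice of candidates but not the measure, the shift of miR-1939 from the WT mean was 1.30 and those of the other 4 lay between -2.89 and -1.66. Their KO minus WT differences ran from -2.08 to -0.038, and miR-24-2# passed (limma, adjusted p = 0.0389; 0.056 without KO replicate 1 and 0.0912 to 0.116 without KO replicate 2 or any WT replicate), while miR-1839-3p passed with the replicate block (0.042) and not without it (0.0552).

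The miRNAs that Toll-like receptor signals regulate in macrophages formed a list of 16 beside the members, of which 15 were tested. In KO 6 of them fell and 0 rose at an adjusted p under 0.05 (limma), beside 37.2% of all tested assays called lower. At an unadjusted p under 0.05, 10 were lower and 0 higher (limma), beside 53.2% of all tested assays lower. All 15 differences were negative, as were 87.6% of those of all tested assays. The list had a median of -2.00 beside -1.91 for all tested assays. Without KO replicate 3 the number that fell was 8, beside 112 of 285 tested assays called lower. Without KO replicate 1 it was 4, beside 101 of 293. Without any 1 of WT replicates 1, 2 or 3 or KO replicate 2 it was 0 (limma; 5 to 8 lower at an unadjusted p under 0.05). The 2 smallest p values were those of miR-21, an abundant macrophage miRNA (-2.21 ± 0.53, SE; adjusted p = 0.0312), and miR-27b (-2.14 ± 0.52; adjusted p = 0.0312). The 2 largest belonged to miR-155, a product of the Bic transcript that activated macrophages induce (-1.93 ± 1.01; adjusted p = 0.155), and miR-125a-5p (-2.92 ± 1.48; adjusted p = 0.143). miR-132 lay within the range of this list, from -3.19 to -1.22. miR-212 was at -1.19 over the amplified wells, just above the range, and at -3.01 with the well at the ceiling, within it. The range includes KO replicate 1, which the amplified wells of miR-212 lack, so -1.19 was not set against the same samples.

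Of 10 neural and neuronal activity-regulated miRNAs 7 were tested, 2 fell and 0 rose (limma; 4 were lower and 0 higher at an unadjusted p under 0.05), with a median of -2.00, beside 37.2% of all tested assays called lower and 53.2% lower at an unadjusted p under 0.05. Without KO replicate 1 or 3 the number that fell was 3, beside 101 of 293 and 112 of 285 tested assays called lower. Without any 1 of the other 4 samples it was 0 (limma; 2 to 4 lower at an unadjusted p under 0.05). Without any 1 of these 4 samples only 2 or 3 of all tested assays were called lower, so a count of 0 there says nothing of either list. Those that fell were miR-138 (-3.48 ± 0.73, SE; adjusted p = 0.0312), a miRNA of dendritic spines, and miR-128a (-2.16 ± 0.52; adjusted p = 0.0312). miR-184 was at -1.44 (adjusted p = 0.142) and miR-218 at -1.23 (adjusted p = 0.603). Of the 7 neural markers 5 were below Ct 35 in all WT samples (miR-9, miR-128a, miR-129-3p, miR-218 and miR-219), miR-137 did not amplify in any sample, and miR-124 amplified only in WT replicate 1, at a Ct of 28.0.

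**Figure D5:**
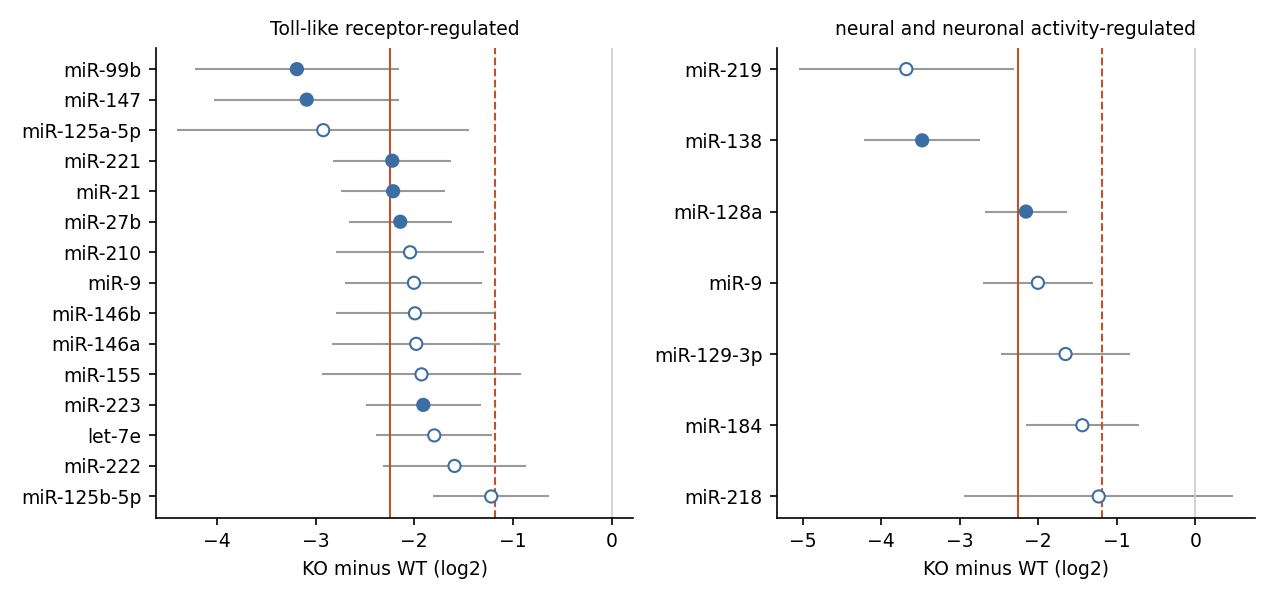
KO minus WT differences (log2, with SE) are plotted for the tested members of the Toll-like receptor list (left) and the neural list (right), with filled points at an adjusted p under 0.05. The solid line marks miR-132 at -2.25 and the dashed line miR-212 over its amplified wells at -1.19.

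The macrophage identity of the cultures was checked on miRNAs. All 6 myeloid markers were tested, with miR-223 at Ct 15.0 to 20.4, and their summed log2 level was 4.87 to 5.74 in WT and 3.00 to 3.86 in KO. The 5 stromal and endothelial markers had summed levels of -0.69, -1.26 and -6.46 in the WT replicates, beside -4.36, -4.24 and -3.26 in the KO replicates, so that WT replicate 3, the WT sample highest in both members, was the lowest of all. The summed level of the 7 neural markers was -5.91 to -4.68 in WT and -7.81 to -6.26 in KO, and that of the 2 lymphocyte markers on the panel -3.02 to -2.38 and -5.12 to -4.01. The erythroid marker miR-451 amplified no earlier than Ct 33.0. These lists, miR-451 apart, are themselves miRNAs that Dicer makes, and their part in the values of miR-132 and miR-212 was not tested.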

How the data were processed

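The authors deposited Ct scores for 6 samples, relative quantities (a ratio in which the WT samples have a geometric mean of 1) and the fold of KO over WT. Per the labels' protocols, mirVana-extracted RNA went through TaqMan reverse transcription and preamplification. The deposited ratios of the members equal those recomputed from Ct with U6, snoRNA135 and snoRNA202 of the block. Instrument and software are not given in the sources used here.

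Ct values were capped at 35 and scaled to the mean of the 5 controls of the block. An assay was tested where 1 group had all 3 samples below 35, which gave 282 assays. The test was limma 3.58.1 under R 4.3.3 (two-sided lmFit and eBayes on genotype only, Benjamini-Hochberg adjustment over all tested assays, threshold 0.05). For miR-212 a second fit left its unamplified well out. The fit was tested on simulated data with less residual scatter than either member had, so its behaviour at their scatter was not tested. Single values were compared by exact permutation over samples. The precision is limited by 3 mice per group. The input is known only through the controls.

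Across assays, the deviations of WT and KO samples with the same replicate number from their group means correlated at 0.23, 0.28 and 0.27. Reported calls and counts are from the fit on genotype without pairs, except those given with the replicate block. By these correlations the numbers may pair the samples, although the labels name no batch, so a replicate block was tried as an alternative. The members and lists were chosen with earlier results of these data known. Named were the members, the controls, the 5 nearest profiles of each member, assays with the same seed, and from each list the tested miRNAs of the 2 lowest and 2 highest p values. The list of lymphocyte markers also named miR-181b and that of erythroid markers miR-144, which were not matched on the panel. Figures were drawn with matplotlib 3.10.9 in Python 3.11.15.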

Additional observations from a re-analysis of the deposited data

How the results depend on the processing

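miR-132 was lower in KO under all 24 alternatives, and it passed the test under 3 of them. These were U6 alone (-2.35), assays detected in all 6 samples only (-2.25, limma, adjusted p = 0.0358) and the fit without KO replicate 3. Under them 117 of 282, 114 of 201 and 112 of 285 tested assays were called lower. Leaving out 1 sample gave -3.16 to -1.60. miR-212 with the ceiling kept its sign under 23 alternatives, with -4.59 to -1.19 when 1 sample was left out. Over the amplified wells it ran from -2.52 to 0.15, the latter without KO replicate 2. The distance between the members changed by -0.74 to 0.15 when 1 sample was left out, by -0.74 within pairs (replicate block) and by 0.76 with the well at the ceiling. The number of assays past the threshold, 106, was 2 with no reference, 3 with the global mean, 5 with snoRNA135 alone, 3 with no filter and 3 to 115 when 1 sample was left out. The 4 controls used alone other than U6 were added after the data were seen. The replicate block changed no call of the members. Of 389 values of 17 other named miRNAs, 10 changed sign: miR-1939 to 0.61 with the global mean, 0.13 with U87, 0.14 with snoRNA135, 0.0083 with snoRNA202 and -0.90 to 0.86 when 1 sample was left out (0.24 without WT replicate 1 and 0.54 without WT replicate 3), miR-184 to 0.45 and miR-218 to 0.66 with the global mean, and miR-218 to 0.054 without WT replicate 1 (-3.26 to 0.054 when 1 sample was left out). The causes were not tested. The limits are 3 mice per group, 1 well per assay and sample in the table, and 1 unamplified well that sets the value of miR-212.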
